A study of Mus musculus with 9 samples.

Results

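Hepatic de novo fatty acid synthesis was followed through 10 genes, Acly, Acaca, Acacb, Fasn, Elovl6, Scd1, Me1, Thrsp, Pnpla3 and Gpam, of 20409 genes with counts. They were chosen by function, though with earlier results of these data known. Each was read from its RefSeq transcript with the highest total count. Pooled livers of male C57BL/6J mice gave 1 RNA-seq library for each of 9 conditions, so differences between conditions could not be checked against replicates. In the feeding experiment, mice on a 12-h light and 12-h dark cycle (LD) ate ad libitum, or were fasted for 16 h (ZT9 to ZT1, with ZT0 at lights on), or were refed for 20 h after a 16-h fast. In the darkness experiment, mice spent 1 week in LD and 6 weeks in constant darkness (DD), and livers were taken at circadian time (CT) 1, 5, 9, 13, 17 and 21. All mice were of this 1 strain and sex and carried no transgene named in the labels. No source used here states how many livers were pooled or at what hour the ad libitum mice were killed, and for the refed mice the hour follows only from the fast and refeeding times. Feeding state and time of day cannot be told apart in the 3 feeding libraries.

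De novo lipogenesis turns surplus carbohydrate into fat. ATP citrate lyase (Acly) releases acetyl-CoA from citrate in the cytosol, the acetyl-CoA carboxylases (Acaca, Acacb) make malonyl-CoA, and fatty acid synthase (Fasn) builds palmitate with NADPH that malic enzyme (Me1) helps to supply. Elovl6 then elongates palmitate, Scd1 introduces a double bond, and Gpam joins the first acyl chain to glycerol-3-phosphate on the way to triglyceride. Thrsp (Spot 14) is a small lipogenic protein without known enzymatic activity, and Pnpla3 is a lipid droplet protein that remodels triglyceride. In liver the pathway is known to be induced by insulin through SREBP-1c and by glucose through ChREBP, and to be switched off by fasting.

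The bases before the start site are shown for the 4 members with the largest refed to fasted ratios, Thrsp, Fasn, Acly and Elovl6, which all stood at least 2-fold higher in the refed than in the fasted library. Sequences are from RefSeq (GRCm38.p6), 250 bases that end at the base before the start site, 5′ to 3′ on the gene's strand. Capitals mark CCAAT, the box bound by NF-Y, on either strand (ATTGG on the other). The start sites are those in the RefSeq table, and the Fasn start lies within the annotated Fasn locus rather than at its edge.
Thrsp, chr7:97417551-97417800, minus strand: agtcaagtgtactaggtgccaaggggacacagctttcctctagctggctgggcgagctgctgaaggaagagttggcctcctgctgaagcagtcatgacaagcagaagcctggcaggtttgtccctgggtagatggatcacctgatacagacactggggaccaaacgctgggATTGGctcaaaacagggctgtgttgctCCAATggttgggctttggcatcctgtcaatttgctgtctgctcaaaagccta
Fasn, chr11:120824548-120824797, minus strand: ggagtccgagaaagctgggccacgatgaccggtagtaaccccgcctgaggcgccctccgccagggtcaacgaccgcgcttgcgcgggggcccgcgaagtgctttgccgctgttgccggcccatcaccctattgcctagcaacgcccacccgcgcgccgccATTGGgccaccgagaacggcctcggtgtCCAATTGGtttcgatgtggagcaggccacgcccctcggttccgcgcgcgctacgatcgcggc
Elovl6, chr3:129532136-129532385, plus strand: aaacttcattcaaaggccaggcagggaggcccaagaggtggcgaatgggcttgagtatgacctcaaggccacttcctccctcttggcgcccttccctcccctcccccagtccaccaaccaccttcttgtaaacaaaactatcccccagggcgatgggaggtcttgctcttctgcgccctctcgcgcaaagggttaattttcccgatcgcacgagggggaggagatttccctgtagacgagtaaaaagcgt
Acly, chr11:100528001-100528250, minus strand: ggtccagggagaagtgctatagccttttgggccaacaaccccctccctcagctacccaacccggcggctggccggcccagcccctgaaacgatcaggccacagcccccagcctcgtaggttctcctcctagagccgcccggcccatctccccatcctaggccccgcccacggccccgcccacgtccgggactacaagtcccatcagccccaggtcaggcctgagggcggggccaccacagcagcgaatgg
The Thrsp stretch held 2 matches, beginning 79 and 52 bases before the start site. The Fasn stretch held 3, beginning 90, 62 and 59 bases before it, of which the last pair overlap. The Elovl6 and Acly stretches held none. Sequences were found for 9 of the 10 members in 11 stretches, since Me1 and Gpam have more than 1 start, and Scd1 was not among them. The stretches of Fasn, Acaca and Acacb, and 1 each of Me1 and Gpam, lie wholly inside the annotated locus of the gene. CCAAT was present in 6 of these 11 stretches and in 33.8% of all 32851 stretches of this length. The E-box CACGTG was present in 0 of the 11 (6.02% of all stretches), CANNTG, which includes CACGTG, in 6 (66.2%), the sterol regulatory element TCACNCCAC in 0 (1.05%) and the GC box GGGCGG in 4 (32.7%), all read on both strands. These are matches of letters and not measured binding sites.

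Totals over genes lay between 43492988 counts (CT9) and 59622950 counts (ad libitum). Levels are CPM (share of the TMM-scaled library total). Unless named otherwise, intervals are exact 95% intervals that cover counting error only. The ad libitum, CT1 and CT17 libraries stood apart in the 28 acute phase genes, secreted proteins and others that liver makes during inflammation, which took 24.8%, 15.2% and 14.8% of their counts against 2.04% to 4.83% in the other 6. Summed neutrophil markers (10 of 10 measured) were at 105, 59.2 and 69.3 CPM in these same libraries. In the others they were at 1.59 to 7.49 CPM. Summed Kupffer cell markers (7 of 8 measured) were at 812, 783 and 915 CPM against 427 to 745 CPM. Marco, Cd5l, Timd4 and Csf1r each stood higher in the ad libitum, CT1 and CT17 libraries than in all others. Marco was at 29.2, 29.7 and 24 CPM there, against 23.2 CPM fasted and 4.27 to 8.7 CPM in the rest. The levels of Clec4f, Vsig4 and Adgre1 overlapped between the 2 sets of libraries. Between the fasted and ad libitum libraries 0 of 7 differed 2-fold, and 3 were higher fasted. Summed hepatocyte markers (7 of 8 measured) ranged from 44396 CPM (ad libitum) to 99404 CPM (CT13), with none at 0. Alb made up most of the sum (32472 and 72662 CPM in these libraries). Hnf4a had its highest level ad libitum (834 CPM) and its lowest refed (488 CPM), whereas each of the other markers was lowest ad libitum. Adipocyte markers summed to 5.18 to 19.9 CPM, mostly Fabp4, with Adipoq at 0 to 0.0918 CPM, and pancreatic acinar markers summed to 0.958 to 1.80 CPM. In bulk liver, fewer cells of a type and less RNA per cell cannot be told apart.

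The members together took 0.291% of all ad libitum counts (95% Wilson interval 0.290 to 0.293), 0.388% (0.386 to 0.389) after fasting, 0.984% (0.982 to 0.987) after refeeding and 2.21% (2.21 to 2.22) at CT13, the highest of the 9 libraries. Scd1 made up between 44.5% (refed) and 85.2% (fasted) of these counts. The members other than Scd1 took 0.0926% of counts ad libitum, 0.0574% fasted, 0.547% refed and 0.772% at CT13, so that only with Scd1 was the fasted share above the ad libitum share. Per kb of transcript, Scd1 had a higher level than the other 9 members in all libraries except the refed library and those at CT9, where Thrsp stood above it, at 1484 CPM per kb against 909 (refed) and at 1392 against 1367 (CT9). Pnpla3 had the lowest level per kb in each of the 9 libraries, at 0.315 to 4.64 CPM per kb. Over the 9 libraries, the ratio of the highest to the lowest level ran from 2.84-fold for Gpam to 48.2-fold for Fasn and 154-fold for Thrsp.

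**Figure D1:**
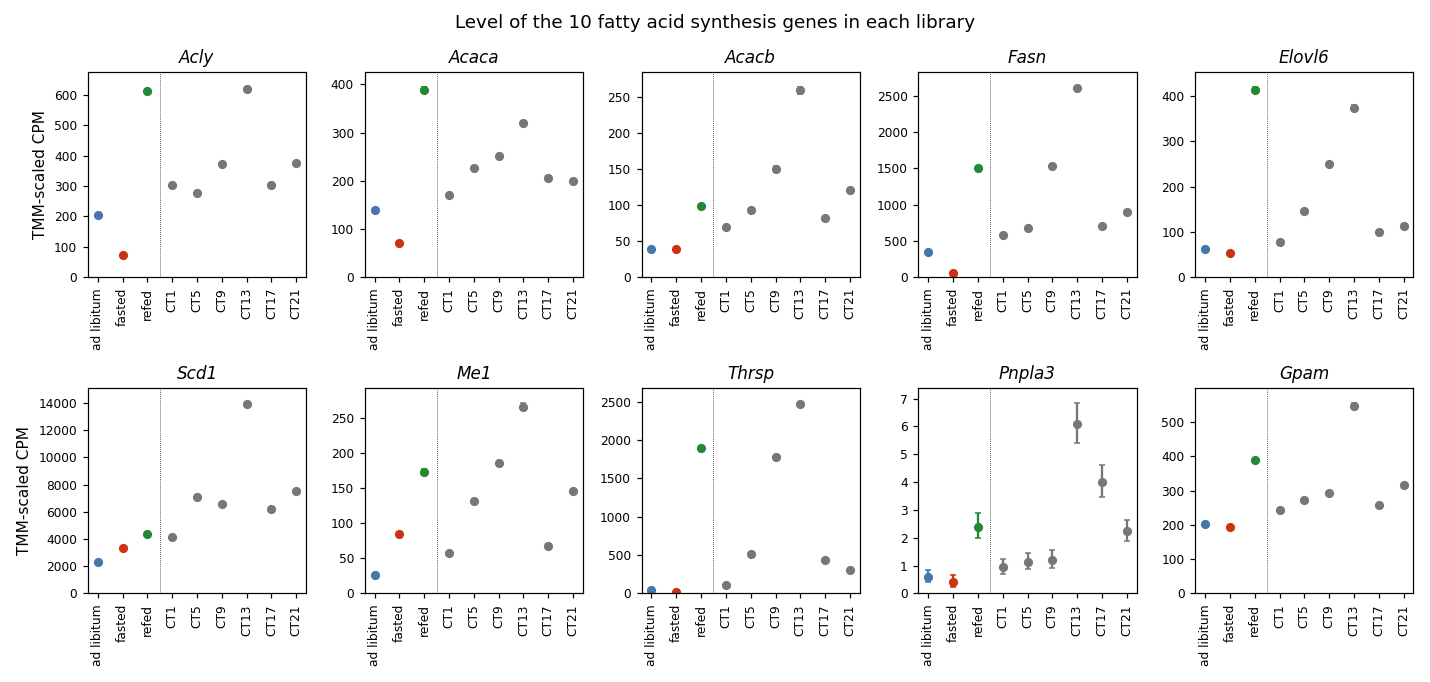
Level of each member in TMM-scaled CPM (vertical axes, 1 scale per gene, starting at 0) in the 9 libraries, 1 point per library, with exact 95% counting intervals that are mostly smaller than the points. The highest DD point of every gene is CT13, and the ad libitum and fasted points lie below all DD points except for Me1 after fasting.

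In the fasted library the members did not move as a block. Acly, Acaca, Fasn and Thrsp stood at least 2-fold below the ad libitum library, Me1 stood at least 2-fold above it, and the other 5 lay within 2-fold. Over all 11145 genes with at least 100 counts in either library, 8.8% stood at least 2-fold lower and 6.39% at least 2-fold higher (14.2% and 4.44% without scaling, 6.59% and 8.72% with total counts, 6.39% and 9.11% relative to Rplp0). The median log2 ratio was -0.38 over the 10 members, -0.22 over the 9 that reached the count minimum and -0.10 over the 11145 genes. Pnpla3, with 18 and 31 counts, did not reach the count minimum. Its log2 ratio of -0.54 lay within 2-fold, but its interval (-1.46 to 0.34) ran past 2-fold lower.

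Fasn showed the largest difference, with Acly and Acaca on the same side. Fasn was at 350 CPM in the ad libitum library and 54.0 CPM after fasting (log2 ratio -2.70, interval -2.76 to -2.63), against a lowest DD level of 583 CPM, a DD median of 799 CPM and a highest of 2606.5 CPM. The fasted Fasn level was thus the lowest of the 9 libraries, and 1.23% of the genes compared had a lower ratio. Acly was at 204 CPM in the ad libitum library and 73.0 CPM after fasting (log2 ratio -1.48, -1.54 to -1.42). Acaca, the cytosolic carboxylase, was at 140 and 69.9 CPM. Its log2 ratio of -1.0 (-1.06 to -0.94) lay at the 2-fold limit and passed or missed it with the scaling. Acacb, the carboxylase at the mitochondrial outer membrane, was at 39.4 and 38.5 CPM (log2 ratio -0.03, -0.13 to 0.06), so that the interval of the difference included 0.

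Scd1 and Me1 went the other way, and Elovl6 and Gpam lay within 2-fold. Elovl6 was at 61.7 CPM in the ad libitum library and 53.1 CPM after fasting (log2 ratio -0.22, -0.30 to -0.14), and Gpam was at 204 and 193 CPM (-0.07, -0.12 to -0.03). The Gpam and Acacb ratios lay on the higher side with total counts (0.11 and 0.15) and relative to Rplp0 (0.13 and 0.17), and that of Acacb also with DESeq2 size factors (0.02). Scd1 was at 2292 CPM in the ad libitum library and 3357 CPM after fasting (log2 ratio 0.55, 0.54 to 0.56). Me1 was at 26.6 CPM in the ad libitum library and 85.3 CPM after fasting (log2 ratio 1.68, 1.59 to 1.77). For these last enzymes the ad libitum library, and not the fasted one, held the lowest level of all 9. The direction for both therefore turned on the reference. Set against the DD mean, the fasted log2 ratio was -0.74 for Me1 (mean 142 CPM) and -1.18 for Scd1 (mean 7589 CPM). Against CT1 it was -0.31 for Scd1, whereas Me1 stayed higher after fasting (0.58). Thrsp was at 43.5 CPM in the ad libitum library and 16.0 CPM after fasting (-1.45, -1.57 to -1.33).

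After 20 h of refeeding all members stood above both the ad libitum and the fasted library, except that Scd1 relative to Rplp0 did not stand above the fasted level (log2 ratio -0.07). Against ad libitum, 8 of 10 were at least 2-fold higher and 0 were 2-fold lower, beside 5.88% higher and 5.51% lower of 11189 genes, and the median log2 ratio was 1.79 over the members and -0.02 over all genes. With total counts all 10 passed, beside 9.15% higher and 3.83% lower, and relative to Rplp0 8 passed, beside 3.74% and 9.7%. Against fasting, 9 of 10 were at least 2-fold higher, beside 5.48% of 10968 genes (3.46% lower), with medians of 2.51 and 0.08. Relative to Rplp0 6 passed, beside 2.35% higher and 10.2% lower. The comparisons share libraries and are given side by side. Without a replicate, these counts carry no test.

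Thrsp had the widest range. It stood at 1895 CPM in the refed library, against 43.5 CPM ad libitum and 16.0 CPM fasted, which is 43.5-fold (log2 ratio 5.44, interval 5.38 to 5.50) and 119-fold (6.89, 6.79 to 7.0) higher. In DD it ran from 109 CPM (lowest) through 472 CPM (median) to 2462 CPM (highest), so the refed level lay inside the DD range while both other feeding levels lay below it. Fasn reached 1506 CPM after refeeding, a log2 ratio of 2.10 (2.08 to 2.13) to ad libitum and 4.80 (4.74 to 4.86) to fasting. Acly reached 614 CPM (log2 ratio 1.59 to ad libitum and 3.07 to fasting), Elovl6 414 CPM (2.75 and 2.96) and Acaca 389 CPM (1.48 and 2.48).

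Of the remaining members, Me1 reached 173 CPM after refeeding, a log2 ratio of 2.70 (2.62 to 2.79) to ad libitum and 1.02 (0.96 to 1.07) to fasting. Acacb reached 98.4 CPM, with log2 ratios of 1.32 and 1.35. Scd1 reached 4390 CPM, a log2 ratio of 0.94 to ad libitum and 0.39 (0.38 to 0.40) to fasting, the smallest refed to fasted ratio of the 10. Gpam, whose enzyme opens glycerolipid synthesis, reached 389 CPM (0.93 and 1.01). Pnpla3 rested on few counts, 115 after refeeding against 31 ad libitum and 18 fasted, and its log2 ratios of 2.00 (1.41 to 2.62) and 2.54 (1.81 to 3.34) have wide intervals. Me1 and Gpam lay near the 2-fold threshold against fasting and missed it under some scalings.

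**Figure D2:**
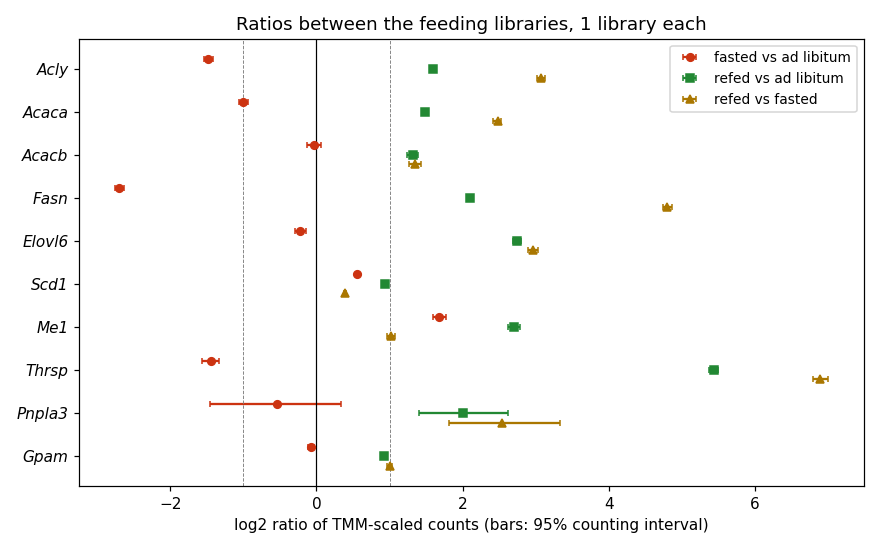
Log2 ratios of TMM-scaled counts (horizontal axis) for fasted against ad libitum (circles), refed against ad libitum (squares) and refed against fasted (triangles), 1 library each, with bars for the exact 95% counting interval and dashed lines at 2-fold. Refed ratios under this scaling are all above 0, up to 6.89 for Thrsp, while fasted ratios run from -2.70 (Fasn) to 1.68 (Me1).

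The balance of the carboxylase transcripts differed between libraries. Acaca makes malonyl-CoA for synthesis, whereas the product of Acacb is known to restrain entry of fatty acids into mitochondria. Per kb of transcript, Acaca counts were 3.33 times those of Acacb in the ad libitum library (interval 3.17 to 3.50), 1.71 times (1.61 to 1.81) after fasting and 3.72 times (3.60 to 3.84) after refeeding. In DD the ratio was between 2.28 and 2.35 at CT1, CT5 and CT17, was 1.57 and 1.55 at CT9 and CT21, and had its minimum of 1.16 at CT13. The ratio does not depend on library scaling, and the fasted value lay inside the DD range while the ad libitum and refed values lay above it.

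**Figure D3:**
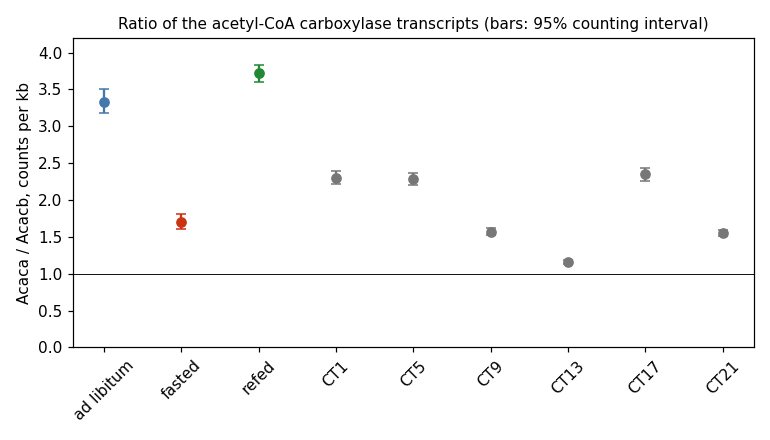
Ratio of Acaca to Acacb counts per kb of transcript (vertical axis, from 0) in each of the 9 libraries, with bars for the exact 95% counting interval. The ratio is highest in the refed (3.72) and ad libitum (3.33) libraries and lowest at CT13 (1.16).

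In constant darkness all 10 members had their highest level at CT13, the start of the subjective night, when mice normally begin to feed. Of 11530 genes with at least 100 counts in their peak library, 22.1% peaked there. The lowest level was at CT1 for 9 members (25.4% of genes) and at CT5 for Acly. For Pnpla3 the intervals at CT1, CT5 and CT9 overlapped (51, 60 and 56 counts). The ratio of peak to nadir was at least 2-fold for 9 of 10 members, beside 20.2% of genes, and missed it for Acaca (log2 ratio 0.91, interval 0.87 to 0.95). The median log2 ratio was 2.03 over the members and 0.60 over all genes. Because each time has 1 library, a peak shared by all members is 1 library that stood high, and without CT13 the count at least 2-fold was 6, beside 16.9% of genes.

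Thrsp again ranged widest, with 109, 512, 1777, 2462, 431 and 299 CPM from the first to the last time (log2 peak to nadir 4.5, 4.46 to 4.54, or 22.7-fold). Levels at CT9 and CT13 stood far above the other 4. Fasn was at 583, 674, 1539, 2606.5, 700 and 897 CPM from CT1 to CT21, and Elovl6 at 77.4, 145, 249, 375, 101 and 114 CPM. Both thus had CT9 as their second-highest level, as did Acaca, Acacb, Me1 and Thrsp. Me1 was at 56.9, 131, 185, 266, 67.8 and 146 CPM and Acacb at 69.5, 92.8, 151, 260, 82.5 and 121 CPM in the same order. Scd1 was at 4164, 7070, 6604, 13943.5, 6218 and 7532 CPM, again highest at CT13 and lowest at CT1. Pnpla3 was the exception in shape, with 0.937, 1.14 and 1.21 CPM at CT1, CT5 and CT9 and 6.09, 4.02 and 2.23 CPM at CT13, CT17 and CT21. Acly (276 to 619 CPM), Acaca (170 to 320 CPM) and Gpam (243 to 548 CPM) moved least.

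**Figure D4:**
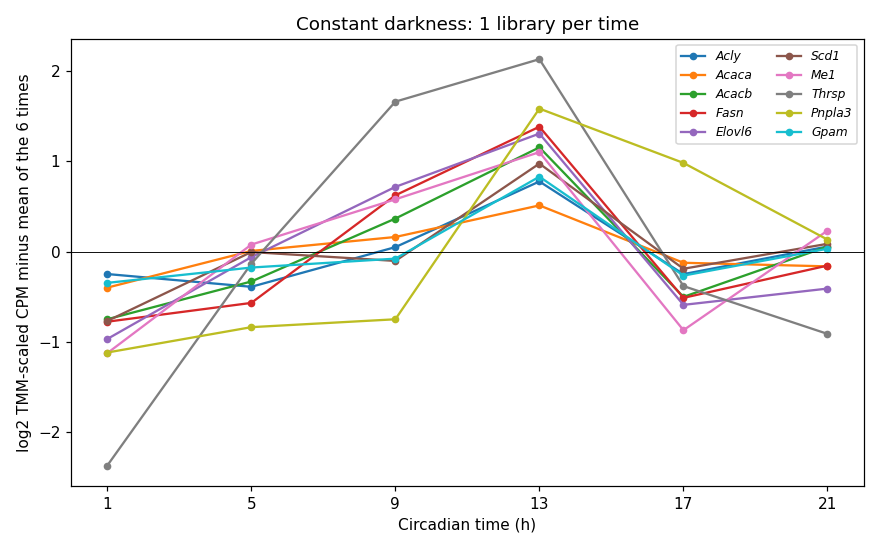
Log2 TMM-scaled CPM of each member minus its mean over the 6 times (vertical axis) against circadian time in h (horizontal axis), 1 library per time and 1 line per gene. All lines are highest at 13 h, Thrsp spans 4.5 log2 units, and only Pnpla3 lies above its mean at 17 h.

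For rhythm, a 24-h cosine was fitted in edgeR (quasi-likelihood, Benjamini-Hochberg adjusted over 14003 genes). The background was 0.0% of genes at an adjusted p below 0.05 and 8.75% at an unadjusted one, and 0 members passed adjusted and 4 unadjusted. These 4 were Thrsp (log2 amplitude 2.0, edgeR adjusted p = 0.22), Pnpla3 (1.34, adjusted p = 0.33), Elovl6 (0.99, adjusted p = 0.43) and Fasn (0.92, adjusted p = 0.52). Fitted peaks of the 10 members lay between 11.3 h (Elovl6) and 15.2 h (Pnpla3). DESeq2 called Thrsp, Pnpla3 and Elovl6 at adjusted p = 1.9e-10, 0.00022 and 0.002, among 347 of 14003 genes. limma-voom called 0 genes, and edgeR without CT21 called Thrsp (adjusted p = 0.023), beside 0.272% of 13952 genes. A least-squares cosine, tested by exact permutation (720 orders of the DD libraries), gave p = 0.0333 for Thrsp and values above 0.05 for the other 9, where 0.0167 is the smallest p it can give.

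The subjective night (CT13, CT17, CT21) was compared with the subjective day (CT1, CT5, CT9), treating times as if they were replicates, which they are not. Mean levels were higher at night for all 10 members, but the night libraries include CT13, where each member had its highest level. For Thrsp, Fasn, Elovl6 and Acaca, the CT17 and CT21 levels both lay below the day mean. For Scd1 and Pnpla3 both lay above it. For Acly, Acacb, Me1 and Gpam, CT17 lay below the day mean and CT21 above it. The edgeR test called 0 members and 0.0% of 13703 genes at an adjusted p below 0.05 (1.82% unadjusted). Only Pnpla3 had all night levels above all day levels, as had 4.36% of genes, and 0 members had them all below, as had 1.43%. The Pnpla3 log2 difference was 1.91 (adjusted p = 1 in edgeR and 0.0044 in DESeq2, which called 5 genes in all). For the other 9 members the levels of night and day overlapped.

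The feeding libraries were also placed against the range of the 6 DD libraries. The ad libitum level lay below all 6 for 10 of 10 members (22.8% of 11649 genes), and the fasted level for 9 of 10 (32.1% of genes), Me1 lying within the range. For Pnpla3 the ad libitum interval (31 counts) overlapped that of CT1 (51 counts). The refed level lay above all 6 for Acaca and Elovl6 (22.9% of genes), below them for 0 members (22.4% of genes) and within the range for the other 8. The refed Acly interval (607 to 621 CPM) overlapped that of CT13 (612 to 626 CPM). With DESeq2 size factors 3 members lay above the range. Relative to the mean of the DD libraries, the median member stood at a log2 ratio of -1.72 ad libitum, -1.75 fasted and 0.33 refed. At least 2-fold from that mean were 7 members in the ad libitum library, all lower (5.11% of genes lower, 3.08% higher), 8 in the fasted library, all lower (6.38% lower, 2.47% higher), and 2 in the refed library, Elovl6 and Thrsp, both higher (0.893% higher, 2.52% lower). Leaving out CT13 put 5 members above the range of the remaining libraries after refeeding, beside 25.0% of genes. Experiment, lighting and harvest time differ between these sets of libraries and cannot be told apart.

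Acute phase counts are set beside the members' levels because the ad libitum library led in them. The members' median log2 level relative to the DD median was -1.30 in the ad libitum, -0.66 in the CT1 and -0.14 in the CT17 library, with 24.8%, 15.2% and 14.8% acute phase counts. It was -1.54 in the fasted library at 3.38%, and -0.06 to 1.16 in the other 5 at 2.04% to 4.83%. Without CT1 and CT17 the peak stayed at CT13 for all 10, and 9 of 10 members still had a peak at least 2-fold above the nadir, beside 8.53% of genes. The log2 ratio of peak to nadir was then 3.04 for Thrsp, 1.02 for Me1 and 1.01 for Gpam, against 4.5, 2.23 and 1.18 with all 6 times. The refed to fasted ratios use none of the 3 libraries. The part of acute phase or neutrophil RNA in the low ad libitum levels was not tested.

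**Figure D5:**
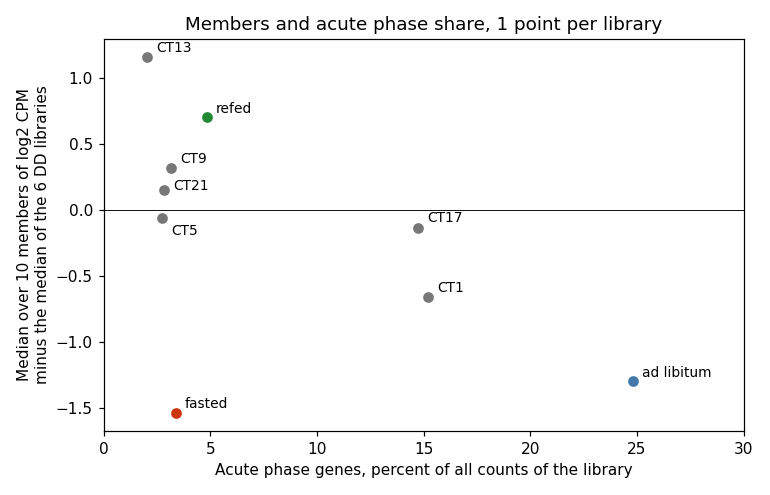
Median over the 10 members of log2 CPM minus each member's median over the 6 DD libraries (vertical axis) against the acute phase genes' percent of counts (horizontal axis), 1 point per library. The ad libitum library is at 24.8% and -1.30, and the fasted library is as low (-1.54) at 3.38%.

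The regulators upstream of the members were read from lists of pathway genes. For all such lists the background is the share of all genes at least 2-fold apart. It was 8.8% lower and 6.39% higher after fasting, and 5.51% lower and 5.88% higher after refeeding. In the refed against the fasted library it was 3.46% lower and 5.48% higher. Of 19 lipogenic regulators, 3 were at least 2-fold lower and 2 higher after fasting, and 2 were higher and 1 lower after refeeding, both relative to ad libitum, and 3 were higher and 1 lower in the refed than in the fasted library. Srebf1, which encodes SREBP-1, was at 153 CPM ad libitum, 18.0 fasted and 319 refed (log2 ratio -3.08 after fasting, 1.06 after refeeding). Insig1, the retention protein of the SREBP complex, was at 499, 57.8 and 674 CPM (-3.11 and 0.43). Srebf2 was lower in both (-1.44 and -1.10), and Ppargc1b, a coactivator of SREBP-1, higher in both on few counts (1.57 and 1.09). Of 10 genes that act on acetyl-CoA carboxylase, Mid1ip1, whose protein promotes its polymerization and is a relative of Thrsp, was the 1 gene past 2-fold in any of the 3 comparisons, at 29.5, 7.14 and 103 CPM (-2.05 and 1.81). Mlycd, which degrades malonyl-CoA, gave 0.69 and 0.27, and Prkaa2, a catalytic subunit of AMPK, 0.09 and 0.42.

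Glucose entry and glycolysis supply the pathway. Of 10 such genes, 2 were at least 2-fold higher and 2 lower after fasting, and 5 were higher and 0 lower after refeeding (6 and 0 against the fasted library). Pklr, liver pyruvate kinase, was at 35.0 CPM ad libitum, 24.9 fasted and 254 refed (log2 ratio -0.49 and 2.86), and Slc2a2, the glucose transporter GLUT2, was at 29.0, 173 and 523 CPM (2.58 and 4.17). Srebf1 thus showed its larger difference from ad libitum on fasting and Pklr on refeeding. Of 13 genes for mitochondrial carbon and NADPH, 2 were higher and 1 lower after fasting and 5 higher after refeeding (3 against the fasted library), with the pyruvate carriers Mpc1 (1.60 and 1.22) and Mpc2 (1.28 and 0.79), Pdhb of pyruvate dehydrogenase (0.81 and 1.90) and Acss2, a cytosolic acetyl-CoA synthetase (-0.07 and 1.90).

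Genes downstream of and beside the members were read in the same way. Of 14 tested genes of elongation, desaturation and acyl-CoA synthesis, 6 were at least 2-fold higher and 1 lower after fasting, and 4 were higher after refeeding, both against ad libitum, whereas against the fasted library 2 were higher and 4 lower after refeeding. Acsl1, an acyl-CoA synthetase that also serves oxidation, was at 233 CPM ad libitum, 3169 fasted and 765 refed (3.77 and 1.72). Elovl3 gave 2.88 and 0.57 and Acsl5 1.31 and 1.45. Of 10 tested genes of glycerolipid synthesis, 3 were higher after fasting, the phosphatidate phosphatase Lpin2 (2.13) and the acyltransferases Gpat3 (1.77) and Gpat4 (1.39), and 1 after refeeding, Lpin2 (1.05). Against the fasted library, 0 of these were higher and 2 lower after refeeding. Gpam, the member of the same step as Gpat3 and Gpat4, was at -0.07 after fasting. Of 8 genes of insulin signalling, 2 were higher after fasting and 2 lower after refeeding, and 2 were lower in the refed than in the fasted library. Igfbp1, which insulin is known to repress, was at 286, 624 and 51.4 CPM (1.13 and -2.48), Irs2 gave -0.14 and -2.26, and Irs1 1.06 and 0.94.

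Profiles over the 9 libraries were compared by the root mean square difference of centred log2(CPM + 0.5), among 11648 other genes. Among the nearest to Fasn were Srebf1 (0.38), Aacs (0.58), an acetoacetyl-CoA synthetase, Mid1ip1 (0.58) and the member Acly (0.70). Nearest to Thrsp were Fasn (1.12), the channel gene Hcn3 (1.18), Pklr (1.20), the clock gene Per3 (1.21) and Cyp2a5 (1.23). Among the members the closest pairs were Acly and Acaca (0.27) and Acacb and Scd1 (0.32), and the most distant pair was Thrsp and Gpam (2.02). These distances describe 9 libraries and carry no test.

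Some counts are uncertain. The 2 deposited transcripts of Acly, and those of Me1, hold nearly the same counts in every library (10508 and 10491 for Acly ad libitum), so 1 was kept. Annotated exons of Elovl6 overlap the antisense gene Gm35986, those of Me1 the antisense gene A330041J22Rik and those of Pnpla3 the gene Gm49513, and no source used here says whether counting used strand. Scd2, Scd3 and Scd4, paralogs that may share reads with Scd1, were at most at 16.8, 4.01 and 0.304 CPM, against at least 2292 CPM for Scd1. On GRCm38.p6 the members lie at chr11:100476352-100528000 (Acly), chr11:84129635-84401651 (Acaca), chr5:114146321-114250761 (Acacb), chr11:120805958-120825166 (Fasn), chr3:129532386-129638495 (Elovl6), chr19:44394450-44407709 (Scd1), chr9:86581363-86695914 (Me1), chr7:97412933-97417550 (Thrsp), chr15:84167776-84189521 (Pnpla3) and chr19:55067635-55127319 (Gpam).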

How the data were processed

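Male C57BL/6J mouse livers were pooled by condition and polyA+ RNA was sequenced, 1 library for each of 9 conditions. The authors mapped reads to GRCm38/mm10 and deposited whole-number read counts per RefSeq transcript. TopHat2 2.0.13 is named in the submitters' processing notes. The counting program is not given in the sources used here. Of 27457 transcripts, 27045 were named from RefSeq (GRCm38.p6) and 124 from GENCODE M21. The 288 unnamed ones, 0.314% to 0.652% of a library's counts, were left out. Per gene the transcript with the highest total was kept, since 3993 genes have several whose counts may overlap.

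Totals per library were 43492988 to 59622950. Counts were scaled by TMM (edgeR 4.0.16, R 4.3.3). Feeding libraries were compared as log2 ratios with exact 95% conditional binomial intervals and no p-value, called at 2-fold, with a minimum of 100 counts in the higher library. The DD series was tested with edgeR's quasi-likelihood test (filterByExpr, minimum count 10, Benjamini-Hochberg at 0.05), for a 24-h cosine and for night against day, with DESeq2 1.42.0, limma 3.58.1 and an exact permutation test as alternatives. The edgeR fits, the permutation test and the ratio intervals were tested on simulated data. For the edgeR fits the simulation gave all genes the same spread between libraries, which cannot be checked with 1 library per time. Levels per kb use the GENCODE M21 length of the transcript. Python 3.11.15, numpy 2.4.6, scipy 1.17.1 and pandas 2.3.3 were used.

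Members, gene lists and tests were chosen with earlier results of these data known. Besides the members, the text names from each pathway list the 2 genes with the largest ratio in size in the fasted and the 2 in the refed library, and the 5 genes nearest to Fasn and to Thrsp. A gene that this rule takes is not reported here. Scd2, Scd3 and Scd4 were named after their values were seen.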

Additional observations from a re-analysis of the deposited data

How the results depend on the processing

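The results rest on 1 library per condition, and no paired analysis was possible because each group has 1 library. The counts of members past 2-fold stayed within 1.5 times under the other scalings (total counts, DESeq2 size factors, none, TMM without the acute phase genes, Rplp0), with summed transcripts and with no minimum count. Fasted members past 2-fold were 5 under TMM and 4 wherever Acaca missed the threshold, and refed to fasted ones 9 under TMM, 7 with DESeq2 size factors and 6 against Rplp0. Setting levels against Rplp0 moved the all-gene median for refed against fasted from 0.08 to -0.38 on the log2 scale, and that for refed against ad libitum from -0.02 to -0.28. Total counts moved the fasted and refed medians against ad libitum to 0.08 and 0.18. With a 3-fold threshold, 2 members were past it after fasting (1 higher, 1 lower).

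The reference library mattered most. Against the mean of the 6 DD libraries, 8 fasted members were past 2-fold, all lower, and 2 refed members, both higher. Against CT5, CT9, CT13 and CT21 alone, chosen after seeing the data, these were 9, all lower, and 1, lower. Log2 ratios that turned were Me1 fasted (-0.74 and -1.09), Acacb refed (-0.40 and -0.67), Pnpla3 refed (-0.12 and -0.16), Scd1 fasted (-1.18 and -1.39) and refed (-0.79 and -1.0), and Me1 refed (-0.08, second reference only). Among the members, scaling turned Acacb fasted (0.15 with total counts, 0.02 with DESeq2 size factors, 0.17 relative to Rplp0), Gpam fasted (0.11 with total counts, 0.13 relative to Rplp0) and Scd1 refed against fasted (-0.07 relative to Rplp0). Against CT1 alone, 5 fasted members were past 2-fold, all lower, with log2 ratios of -0.31 for Scd1 and 0.58 for Me1. The cause of these differences was not tested.

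In DD, the cosine test called 3 members with DESeq2, beside 347 of 14003 genes. With each library left out it called 0 to 1, the 1 without CT21, beside 38 of 13952 genes. Night against day called 1 member with DESeq2, beside 5 of 13703 genes. The exact permutation test called 0 members and 0 of 14003 genes after adjustment (689 genes unadjusted). Members at least 2-fold from nadir to peak were 6 to 9, and members above the DD range after refeeding 2 to 5, with each library left out, the extremes being those without CT13. Pnpla3, at 18 to 295 counts, is limited by depth.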
